A study of Mus musculus with 12 samples.

Results

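The genes described here encode acute phase proteins: the serum amyloid A genes Saa1, Saa2 and Saa3, the long pentraxin Ptx3, the iron and haem binding proteins Lcn2, Hp, Hpx and Cp, the carrier Orm1 and the protease inhibitor Serpina3n. They were found by the gene name that the array files give each probe, which selected 12 probes of 10 genes among 41174 transcript probes. A probe was tested where some group had a signal well above background on each of its 3 arrays. This kept 11 probes of 9 of the 10 genes, all but Orm1, and 27682 probes in all.

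The acute phase response is the change in plasma proteins that follows infection or injury. Interleukin-6 and interleukin-1 drive it, mainly in the liver, through the transcription factors STAT3, C/EBP and NF-kappaB. Some of the same genes are also switched on in brain: Lcn2 and Serpina3n are widely used as markers of reactive astrocytes in rodents, and serum amyloid A and Ptx3 can be made by macrophages and other cells outside the liver.

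Whole hippocampus was taken from male C57BL/6N mice aged 12 weeks, all of which had received 50 nl of 20 mM kainate, a glutamate receptor agonist, in the left dorsal hippocampus under Hypnorm/Hypnovel anaesthesia and had developed recurrent seizures. After 3 weeks they received 1 intraperitoneal injection of lipopolysaccharide (LPS, from Salmonella enterica serotype abortus equi, at 100 µg/kg) or of saline. The 4 groups of 3 arrays each are LPS at 4 h, saline at 4 h, LPS at 24 h and saline at 24 h. The labels do not say which side was dissected, and no group without kainate is part of the series, so every value is a response to LPS in a hippocampus already exposed to kainate and seizures.

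Levels are given as the background-corrected intensity of a probe in percent of the 75th percentile of all transcript probes on the same array, so that 100% is a probe at that percentile. They compare one probe across arrays, not one probe with another. That 75th percentile was 663 ± 33.6 (SD, n = 3) intensity units on the LPS 4 h arrays against 365 ± 12.3 on the saline 4 h arrays, and 820 ± 117 on the LPS 24 h arrays against 769 ± 60.7 on the saline 24 h arrays. The saline 4 h arrays therefore stand apart from the other 9. The 4 h and 24 h arrays were also scanned on different days. For this reason each 4 h count of a gene list is also given against the saline 24 h arrays. So is the 4 h result of the brightest probe of each tested acute phase gene named at the start. A single spot varied by 0.0427 to 0.0907 log2 units (SD) between the arrays of a group and repeated spots on 1 array varied by 0.0503 to 0.0936, so that the arrays are separate animals rests on the labels. The p-values measure only the spread between these arrays, which may be technical. In whole tissue, a change in the number of cells that express a gene and a change in the RNA per cell cannot be told apart.

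The sequences of 3 probes, those of Saa3, Saa1 and Lcn2, are shown as what the arrays measured, with positions on mm9, the mouse build of the files. The Saa3 probe lies at chr7:53968031-53968090 on the minus strand. The second Saa1 probe spans chr7:53996167-53996639 on the minus strand and the Lcn2 probe spans chr2:32241037-32241281 on the minus strand, both stretches longer than the 60 bases of the probe.
Saa3: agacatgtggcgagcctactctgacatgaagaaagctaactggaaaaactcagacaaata
Saa1 second probe: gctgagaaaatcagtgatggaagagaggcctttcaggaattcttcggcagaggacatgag
Lcn2: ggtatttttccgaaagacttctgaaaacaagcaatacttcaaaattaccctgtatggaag

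The 250 bases upstream of the start of transcription were searched for 3 motifs on both strands: TTNNGCAA, a pattern within the sites of the C/EBP family, TTCNNNGAA, the pattern of STAT sites, and the kappaB consensus. RefSeq (GRCm38.p6) gave windows for 8 of the 10 genes. In the first window listed for each gene, TTNNGCAA was found in Saa1, Saa2, Saa3, Ptx3, Lcn2 and Hpx, and in Cp it was found in the second window alone. Of 27025 promoter windows of the same length, 9.55% hold TTNNGCAA, 7.18% TTCNNNGAA and 3.75% the kappaB consensus. Neither TTCNNNGAA nor the kappaB consensus was found in the window of any of these genes. The windows of the serum amyloid A genes, Ptx3 and Lcn2 are shown with the match in capitals, and that of Serpina3n, which has no match, is shown beside them because its response to LPS was the one that was larger at 24 h by every processing tried. They lie at chr7:46742981-46743230 on the minus strand for Saa1, chr7:46751583-46751832 on the plus strand for Saa2 and chr7:46715677-46715926 on the minus strand for Saa3. Those of Ptx3, Lcn2 and Serpina3n lie at chr3:66219637-66219886 on the plus strand, chr2:32387740-32387989 on the minus strand and chr12:104406458-104406707 on the plus strand.
Saa1: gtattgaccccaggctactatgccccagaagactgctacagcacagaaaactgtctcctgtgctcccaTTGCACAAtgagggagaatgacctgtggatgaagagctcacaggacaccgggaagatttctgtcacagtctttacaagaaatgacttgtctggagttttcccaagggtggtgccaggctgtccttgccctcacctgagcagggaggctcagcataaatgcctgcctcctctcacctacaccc
Saa2: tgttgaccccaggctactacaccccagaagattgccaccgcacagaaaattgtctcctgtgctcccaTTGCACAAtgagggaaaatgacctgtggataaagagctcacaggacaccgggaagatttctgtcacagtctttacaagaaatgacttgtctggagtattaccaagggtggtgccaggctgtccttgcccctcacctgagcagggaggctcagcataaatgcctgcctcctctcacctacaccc
Saa3: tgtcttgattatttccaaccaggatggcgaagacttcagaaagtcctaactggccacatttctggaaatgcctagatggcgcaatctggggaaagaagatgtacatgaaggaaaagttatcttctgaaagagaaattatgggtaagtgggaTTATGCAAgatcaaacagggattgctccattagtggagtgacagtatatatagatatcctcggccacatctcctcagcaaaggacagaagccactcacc
Ptx3: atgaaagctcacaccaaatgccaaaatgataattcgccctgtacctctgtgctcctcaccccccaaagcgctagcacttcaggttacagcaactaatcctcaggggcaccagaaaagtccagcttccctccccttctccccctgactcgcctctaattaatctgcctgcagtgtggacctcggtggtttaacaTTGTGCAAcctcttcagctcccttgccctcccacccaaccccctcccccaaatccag
Lcn2: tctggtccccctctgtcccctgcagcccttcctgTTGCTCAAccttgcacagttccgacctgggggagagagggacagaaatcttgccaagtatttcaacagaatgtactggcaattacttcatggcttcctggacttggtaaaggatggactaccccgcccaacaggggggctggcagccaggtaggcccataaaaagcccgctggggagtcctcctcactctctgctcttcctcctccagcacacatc
Serpina3n: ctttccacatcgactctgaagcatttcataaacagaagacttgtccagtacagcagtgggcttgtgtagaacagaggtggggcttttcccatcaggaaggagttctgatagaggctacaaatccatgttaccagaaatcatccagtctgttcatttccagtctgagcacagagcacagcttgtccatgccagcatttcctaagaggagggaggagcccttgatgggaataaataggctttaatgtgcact

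Counted from the start of transcription, the match runs from position -182 to -175 in Saa1 and from -183 to -176 in Saa2, with the same letters in both. It runs from -99 to -92 in Saa3, from -57 to -50 in Ptx3 and from -216 to -209 in Lcn2. Saa1 and Saa2 lie side by side and head to head on chromosome 7, and their windows were identical in 238 of 251 aligned columns (94.8%), against 52.2% between Saa1 and Saa3 and 52.4% between Saa2 and Saa3. Saa1 and Saa2 are near copies in their transcripts as well, so that their probes may each detect both RNAs, and RefSeq lists each under the other's name as a synonym. A match of letters is a description of the sequence, and binding was not measured. Hpx holds a match although no difference from saline was called for it at either time. Whether matches go with the size or the time of the responses to LPS was not tested.

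The first question is which acute phase genes differed from saline 4 h after LPS. At that time 10 of the 11 tested probes, of 8 of the 9 genes, were higher in LPS at an adjusted p under 0.05 (limma, Benjamini-Hochberg over all 27682 probes), 0 were lower, and Hpx did not pass. Among all tested probes 31.6% were higher and 39.4% lower by the same rule. By the stricter rule of at least 2-fold, 9 of the 11 probes were higher against 8.81% of all probes. The median difference of the 11 probes was 2.29 on the log2 scale against -0.08 for all tested probes. Saa3 entered the test through its LPS arrays alone, so it had to differ once it was tested.

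At 24 h, 10 of the 11 probes were again higher, 0 were lower and Hpx again did not pass, beside 20.8% of all tested probes that were higher and 20.9% that were lower. All 10 were higher by at least 2-fold, against 2.69% of all probes, and the median difference of the 11 was 1.56 against 0.0029 for all probes. The 3 LPS arrays lay above the 3 saline arrays for 10 probes at each time, which was the case for 33.0% of all tested probes at 4 h and 27.6% at 24 h. Against the saline 24 h arrays, the LPS 4 h arrays were higher for 9 of 11 probes, beside 35.5% of all probes, and Hpx and Serpina3n did not pass.

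**Figure D1:**
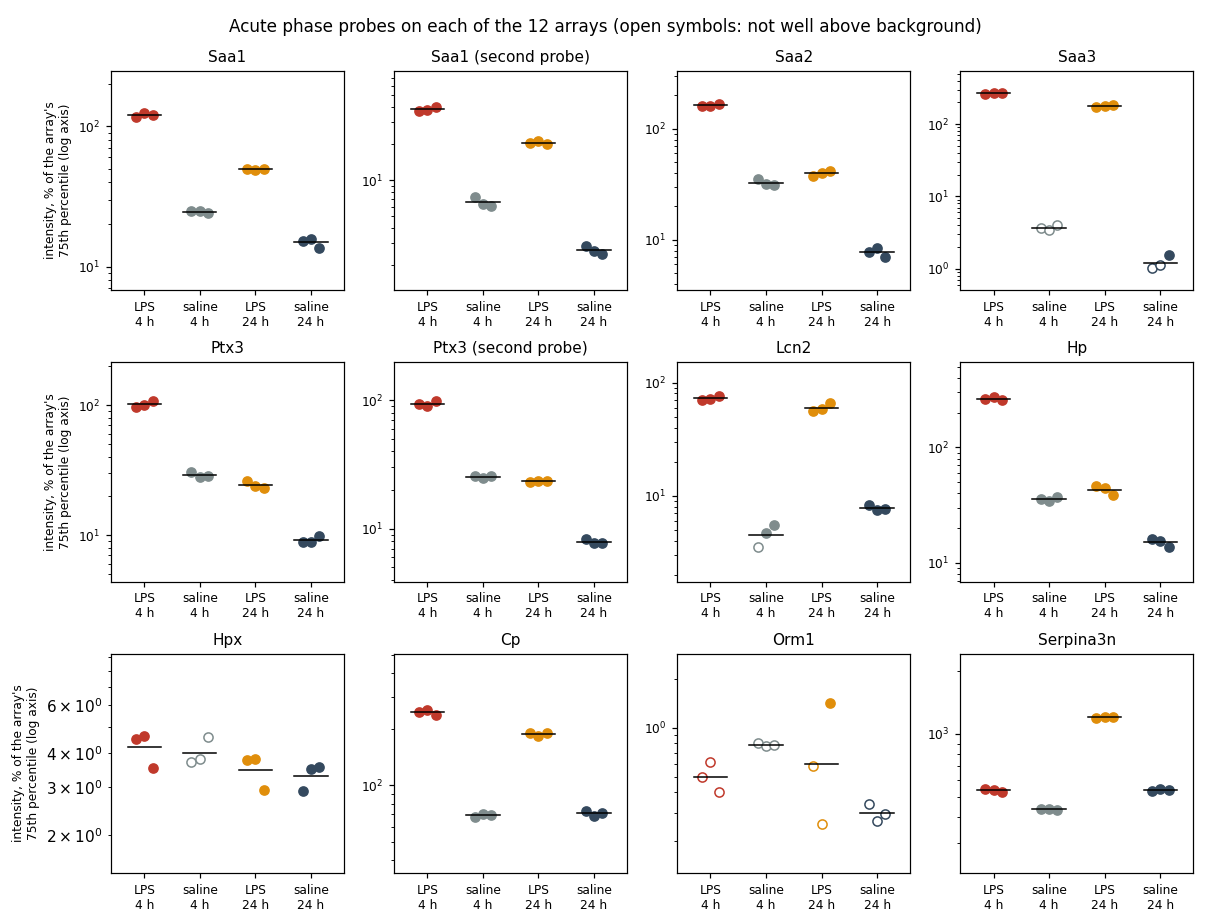
Level of each of the 12 acute phase probes on every array, in percent of the array's 75th percentile on a log axis with its own range in each panel; points are arrays (n = 3 per group), lines are means of the log values and open points are signals not well above background. The LPS points lie above the saline points of the same time in every panel but Hpx and Orm1, and the saline 24 h points lie below the saline 4 h points for Saa1, Saa2, Ptx3 and Hp.

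Serum amyloid A proteins are apolipoproteins of high-density lipoprotein whose plasma level rises steeply in inflammation. Saa3, the member of the family made mainly outside the liver in mice, measured 261%, 274% and 275% on the LPS 4 h arrays, against 3.60%, 3.41% and 3.99% on the saline 4 h arrays. It was well above background on all 3 LPS arrays and on 0 of the 3 saline arrays, so the fold can only be bounded, at 70.4-fold or more (n = 3 per group, adjusted p = 3.95e-10). At 24 h Saa3 measured 173%, 180% and 185% on the LPS arrays, against 1.01%, 1.12% and 1.56% on the saline arrays, of which 1 was well above background. The difference at 24 h was 7.21 ± 0.13 (SE) on the log2 scale (adjusted p = 9.87e-10). Both saline groups are at or near the limit of the arrays for Saa3, so the size of each difference depends on how background is removed: with normexp background correction it was 3.68 at 4 h and 4.27 at 24 h, still with adjusted p of 1.16e-09 and 9.88e-10. Against the saline 24 h arrays the difference at 4 h was 7.80 ± 0.13, with the same limit.

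The brighter Saa1 probe measured 116%, 125% and 121% on the LPS 4 h arrays, against 24.9%, 25.1% and 24.1% on the saline 4 h arrays. Saa1 was thus 4.88 times as high after LPS (2.29 ± 0.05 on the log2 scale, adjusted p = 6.50e-10). At 24 h it measured 49.6%, 49.2% and 49.3% on the LPS arrays, against 15.3%, 15.8% and 13.6% on the saline arrays, a difference of 1.73 ± 0.05 (adjusted p = 1.31e-08). The groups did not overlap at either time, and the LPS arrays at 24 h also lay above the saline arrays at 4 h. The second Saa1 probe gave differences of 2.55 ± 0.07 at 4 h and 2.94 ± 0.07 at 24 h (adjusted p = 1.75e-09 and 3.91e-09). With normexp these were 1.23 and 1.45, and the probe's saline 24 h level of 2.64% lies close to the background.

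Saa2 measured 161%, 162% and 167% on the LPS 4 h arrays, against 35.4%, 31.6% and 30.9% on the saline 4 h arrays. The difference was 2.32 ± 0.07 (adjusted p = 2.80e-09). At 24 h Saa2 measured 37.9%, 39.9% and 41.6% on the LPS arrays, against 7.80%, 8.39% and 7.05% on the saline arrays, a difference of 2.36 ± 0.07 (adjusted p = 1.07e-08). The groups were separate at each time, and yet the LPS 24 h arrays exceeded the saline 4 h arrays by only 0.29 ± 0.07 (adjusted p = 0.00390). Saa2 was the member whose saline level differed most between the times, by -2.08 ± 0.07 for 24 h minus 4 h (adjusted p = 1.63e-09). Against the saline 24 h arrays, the rise of Saa2 at 4 h was 4.40 ± 0.07, and that of Saa1 3.02 ± 0.05.

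Ptx3 encodes a secreted pattern recognition protein that binds microbes and the complement component C1q. Its brighter probe, at chr3:66029245-66029304 on the plus strand of mm9, measured 96.7%, 101% and 107% on the LPS 4 h arrays, against 30.6%, 28.0% and 28.5% on the saline 4 h arrays. The difference was 1.81 ± 0.07 (adjusted p = 8.17e-09). At 24 h it measured 26.0%, 23.8% and 23.0% on the LPS arrays, against 8.80%, 8.77% and 9.81% on the saline arrays, a difference of 1.41 ± 0.07 (adjusted p = 2.22e-07). The difference at 4 h was 3.48 ± 0.07 against the saline 24 h arrays. LPS and saline were separate within each time, but the LPS 24 h arrays lay below the saline 4 h arrays by 0.26 on the log2 scale (difference -0.26 ± 0.07, adjusted p = 0.00453). The second Ptx3 probe, which overlaps the first on the genome, gave differences of 1.89 ± 0.04 at 4 h and 1.56 ± 0.04 at 24 h.

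Lcn2, lipocalin-2, binds bacterial siderophores and so withholds iron from microbes. It measured 70.1%, 71.6% and 75.4% on the LPS 4 h arrays, against 3.50%, 4.65% and 5.56% on the saline 4 h arrays, of which 2 were well above background. The difference was 4.01 ± 0.14 (adjusted p = 6.58e-09), and it was 1.93 with normexp (adjusted p = 1.13e-08). At 24 h Lcn2 measured 56.3%, 57.8% and 65.7% on the LPS arrays, against 8.29%, 7.44% and 7.59% on the saline arrays, a difference of 2.95 ± 0.14 (adjusted p = 2.53e-07). The LPS arrays of both times lay above all 6 saline arrays, and against the saline 24 h arrays the rise at 4 h was 3.22 ± 0.14.

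Hp, haptoglobin, binds free haemoglobin and delivers it to macrophages. It measured 265%, 272% and 257% on the LPS 4 h arrays, against 35.9%, 34.6% and 37.5% on the saline 4 h arrays, a difference of 2.88 ± 0.07 (adjusted p = 9.88e-10). At 24 h Hp measured 45.9%, 44.5% and 38.9% on the LPS arrays, against 16.1%, 15.4% and 13.8% on the saline arrays, a difference of 1.51 ± 0.07 (adjusted p = 2.78e-07). Against the saline 24 h arrays the difference at 4 h was 4.13 ± 0.07. Its high level was thus at 4 h, and the LPS 24 h arrays lay just above the saline 4 h arrays, by 0.26 ± 0.07 (adjusted p = 0.00874).

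Cp, ceruloplasmin, is a copper-carrying ferroxidase that astrocytes also make in a membrane-bound form. It measured 248%, 254% and 239% on the LPS 4 h arrays, against 67.8%, 70.5% and 69.7% on the saline 4 h arrays, a difference of 1.83 ± 0.04 (adjusted p = 2.54e-10). At 24 h Cp measured 190%, 185% and 191% on the LPS arrays, against 73.0%, 68.7% and 71.3% on the saline arrays, a difference of 1.41 ± 0.04 (adjusted p = 4.42e-09). The saline arrays of Cp overlapped between the times (24 h minus 4 h 0.03 ± 0.04, adjusted p = 0.407), so that its rise at 4 h was nearly the same against either saline group, at 1.83 and 1.80.

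Hpx, hemopexin, scavenges free haem and is a companion of haptoglobin in plasma. It measured 4.52%, 4.64% and 3.52% on the LPS 4 h arrays, against 3.69%, 3.79% and 4.60% on the saline 4 h arrays, on which it was not well above background. The difference was 0.07 ± 0.15 (adjusted p = 0.707), and at 24 h it was 0.07 ± 0.15 (adjusted p = 0.737), with overlapping arrays at both times. Against the saline 24 h arrays the difference at 4 h was 0.35 ± 0.15 and did not pass (adjusted p = 0.0597). At 24 h Hpx measured 3.76%, 3.81% and 2.92% on the LPS arrays, against 2.89%, 3.51% and 3.55% on the saline arrays. These signals were dim but well above background on every array of both groups. A change that is small beside the standard error of 0.15 would have been missed, so these values do not show that there was none. At 4 h the comparison is limited by the saline signals at background. Orm1, the carrier alpha-1-acid glycoprotein, measured between 0.26% and 1.42% on the 12 arrays and was well above background on 1 of them, an LPS 24 h array, so no difference is given.

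Serpina3n, a secreted inhibitor of serine proteases and a marker of reactive astrocytes, had another time course. It measured 548%, 539% and 531% on the LPS 4 h arrays, against 437%, 440% and 433% on the saline 4 h arrays, a difference of 0.30 ± 0.03 (adjusted p = 2.21e-06). Against the saline 24 h arrays, at 536%, 546% and 538%, the LPS 4 h arrays overlapped, with a difference of -0.0027 ± 0.0253 (adjusted p = 0.929), so the small rise at 4 h rests on which saline arrays are used. At 24 h Serpina3n measured 1188%, 1208% and 1206% on the LPS arrays, a difference of 1.15 ± 0.03 from the saline 24 h arrays (adjusted p = 2.46e-09). The LPS 24 h arrays lay far above all other arrays, including the saline 4 h arrays (1.46 ± 0.03, adjusted p = 5.22e-11).

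**Figure D2:**
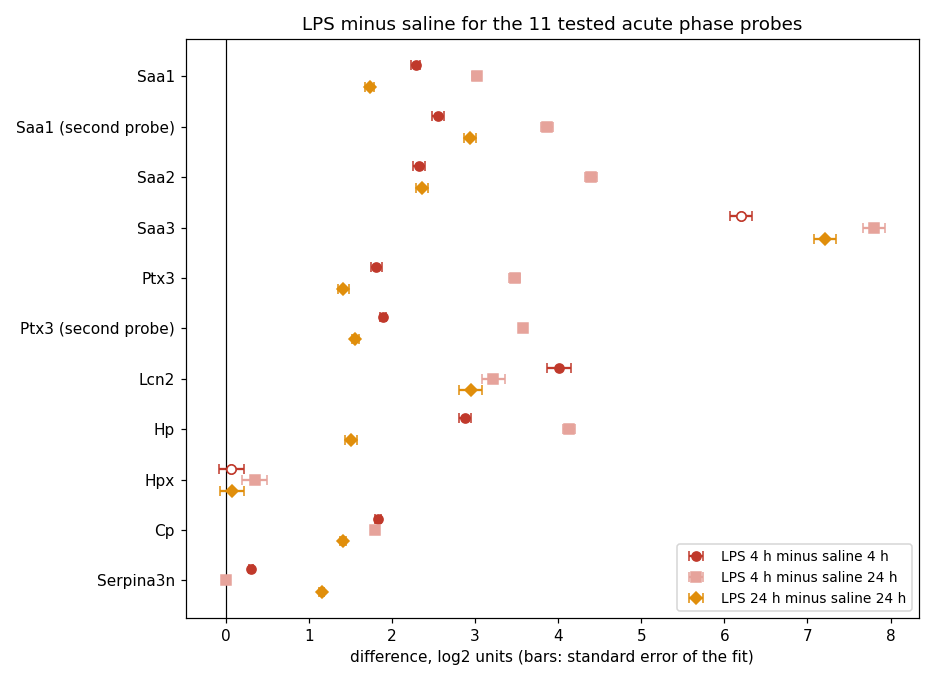
Differences in log2 units for the 11 tested acute phase probes, with the standard error of the fit as bars: LPS 4 h minus saline 4 h (circles), LPS 4 h minus saline 24 h (squares) and LPS 24 h minus saline 24 h (diamonds). Open symbols mark a group with no array well above background. Saa3 is farthest right, Hpx lies near 0, and Serpina3n has its largest difference at 24 h.

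Whether the response to LPS differed between the times was tested by the difference of the differences, 24 h minus 4 h, in the same fit. It passed for 9 of the 11 probes, 3 with a larger and 6 with a smaller response at 24 h, while 65.9% of all tested probes passed it, 37.6% with a larger and 28.3% with a smaller response. Scan day differed between the times, so time and scan day cannot be told apart in these differences. For Hp the response at 24 h was smaller by 1.37 (difference -1.37 ± 0.10, adjusted p = 1.72e-06). For Cp the difference was -0.42 ± 0.05 (adjusted p = 4.27e-05), and for Ptx3 -0.40 ± 0.09 and -0.33 ± 0.06 by its probes (adjusted p = 0.00378 and 0.000476). For Serpina3n the response at 24 h was larger by 0.85 ± 0.04 (adjusted p = 3.75e-08). These 4 genes kept the direction of this difference and an adjusted p under 0.05 in each of the 24 or 25 alternatives tried. Those of Saa3 (1.01 ± 0.19, adjusted p = 0.000946) and Lcn2 (-1.06 ± 0.20, adjusted p = 0.000951) rest on saline signals near background. That of Lcn2 was 0.13 with normexp and did not pass (adjusted p = 0.337). That of Saa3 was 0.59 with normexp (adjusted p = 0.00176) but -0.22 with the deposited matrix (adjusted p = 0.0442), which joins normexp with quantile normalization. The 2 Saa1 probes had differences of -0.56 ± 0.08 and 0.39 ± 0.10 (adjusted p = 0.000111 and 0.00686), and Saa2 did not pass (0.04 ± 0.10, adjusted p = 0.739). The second Saa1 probe did not pass with normexp (0.21, adjusted p = 0.114) and was -0.27 with the deposited matrix (adjusted p = 0.00299), where Saa2 passed at -0.46 (adjusted p = 0.000200).

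The saline groups themselves differed. Between saline at 24 h and saline at 4 h, 2 of the 11 acute phase probes (Lcn2 and Serpina3n) were higher, 7 were lower and 2 did not pass, beside 79.5% of all tested probes that differed in either direction, 38.0% higher and 41.5% lower. Saa1 measured 14.9 ± 1.15% (SD, n = 3) in saline at 24 h and 24.7 ± 0.56% in saline at 4 h, Hp 15.1 ± 1.19% and 36.0 ± 1.48%, and Ptx3 9.13 ± 0.60% and 29.0 ± 1.38%. The median of the 11 differences was -1.25 on the log2 scale, against -0.02 for all tested probes. For Saa3 the saline difference of -1.60 compares signals at the limit of the arrays and gives no level. The saline difference of Lcn2 turned to -0.40 with normexp (adjusted p = 0.000214), so its direction is not settled. The differences at 4 h of Saa1, Saa2, Ptx3 and Hp were larger against the saline 24 h arrays, and the median over the 11 probes was 3.48 against those arrays and 2.29 against the saline 4 h arrays.

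**Figure D3:**
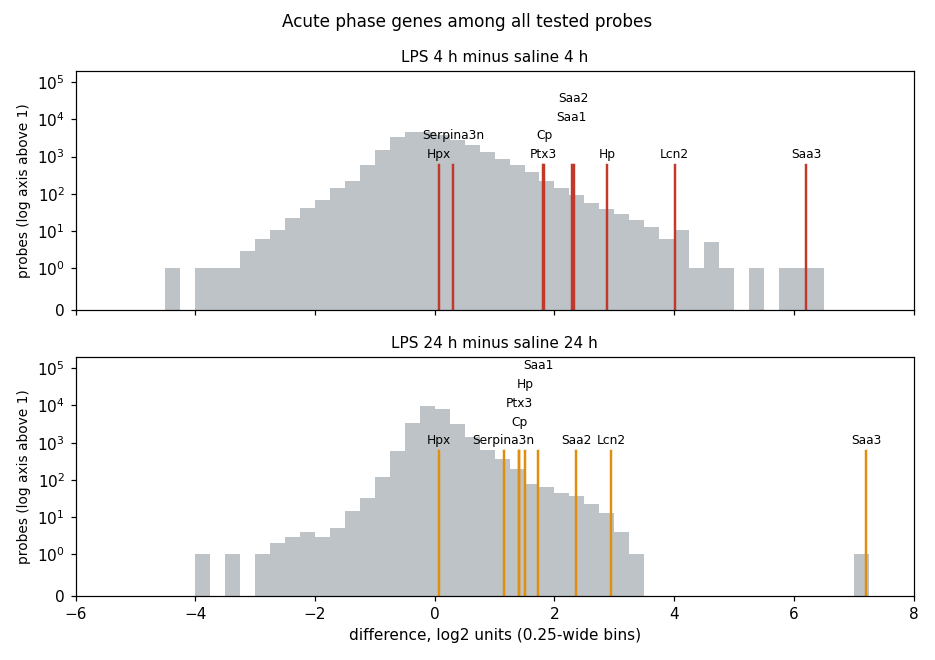
Histograms of the log2 differences of all 27682 tested probes (grey, 0.25-wide bins, counts on a log axis above 1) at 4 h (top) and 24 h (bottom), with a vertical line for the brightest probe of each of the 9 tested acute phase genes. Hpx and, at 4 h, Serpina3n lie in the bulk of the probes, and Saa3, whose saline signals are at or near background, lies at the right end at both times.

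The members did not move as one group across the 12 arrays. The log2 values of Saa2 and the 2 Ptx3 probes had Pearson correlations of 0.98 and 0.99, and those of Hp and Ptx3 0.98. Saa3 and Cp (0.98) and Lcn2 and Cp (0.98) formed another close set, whereas Serpina3n had a correlation of 0.57 with Saa3, 0.63 with Lcn2 and -0.10 with Ptx3. The brighter Saa1 probe stood between these sets, with correlations of 0.96 with Saa2, 0.96 with Hp, 0.93 with Saa3 and 0.94 with Cp. The Saa2, Ptx3 and Hp set was high on the LPS 4 h arrays and low on the saline 24 h arrays, with LPS 24 h and saline 4 h between them, and the Lcn2 and Cp set was high on both LPS groups. These values describe 12 arrays in 4 groups that share slides and scan days.

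Among 7342 genes with a range of at least 1 log2 unit, those with the pattern most like Saa3 were Ifitm1 (r = 0.9947), Ms4a6c (0.9937), Sult1c2 (0.9930), Hspb1 (0.9899) and Plac8 (0.9885). Plac8 measured 64.1 ± 2.24% in LPS at 4 h against 12.6 ± 0.37% in saline at 4 h, and 40.4 ± 1.02% in LPS at 24 h against 7.01 ± 0.47% in saline at 24 h. For Lcn2 they were Pglyrp1 (0.9953), Cd44 (0.9863), Chi3l3 (0.9855), Ube2l6 (0.9847) and the member Cp (0.9802). Pglyrp1, which encodes a bactericidal peptidoglycan recognition protein stored in neutrophils, measured 97.6 ± 4.20% in LPS at 4 h against 18.5 ± 1.13% in saline at 4 h, and 86.9 ± 1.94% in LPS at 24 h against 23.6 ± 1.83% in saline at 24 h. For Serpina3n they were Sema3b (0.9873), Col2a1 (0.9858), Dmrt3 (0.9795), Nfam1 (0.9789) and Ccnd3 (0.9765). Sema3b, a secreted semaphorin, measured 101 ± 1.68% in LPS at 4 h against 92.6 ± 1.66% in saline at 4 h, and 182 ± 10.8% in LPS at 24 h against 102 ± 5.30% in saline at 24 h.

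Of 28 cytokines, receptors and transcription factors that act upstream of acute phase genes, 27 were on the array and 25 were tested. At 4 h 20 were higher, 3 lower and 2 did not pass, with a median difference of 0.68 against -0.08 for all probes, of which 31.6% were higher and 39.4% lower. At 24 h 18 were higher, 2 lower and 5 did not pass, with a median of 0.48 against 0.0029 for all probes, of which 20.8% were higher and 20.9% lower. Set against saline at 24 h, 21 were higher at 4 h, 3 lower and 1 did not pass, with a median of 1.25, beside 35.5% of all probes that were higher. Hnf4a was on the array and did not meet the filter. Tnf met it through its LPS arrays alone, as did Il6, which is described below. Tnf was above background on 0 of the saline 4 h arrays and on 2 of the saline 24 h arrays, so the filter favoured a difference for it.

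Il6, the cytokine that induces acute phase genes through gp130 and STAT3, measured 16.8 ± 0.10% in LPS at 4 h, against 1.19 ± 0.22% in saline at 4 h, where it was not above background on any array. It rose at least 4.48-fold (adjusted p = 2.64e-09), and at 24 h it was below background in both groups. Il6 entered the test through its LPS 4 h arrays alone, so it had to differ once it was tested. Il1b, interleukin-1 beta, measured 54.0 ± 1.04% in LPS at 4 h against 6.30 ± 0.19% in saline at 4 h, and 14.2 ± 0.64% in LPS at 24 h against 4.44 ± 0.17% in saline at 24 h. Its differences were 3.10 ± 0.04 and 1.67 ± 0.04 (adjusted p = 5.66e-11 and 4.79e-09). Socs3, the feedback inhibitor that STAT3 induces, measured 2787 ± 30.2% in LPS at 4 h against 449 ± 5.34% in saline at 4 h, a difference of 2.63 ± 0.03 (adjusted p = 2.90e-11). At 24 h Socs3 was still higher in LPS by 1.52 ± 0.03 (adjusted p = 1.17e-09). Against saline at 24 h, the differences at 4 h were 3.61 ± 0.04 for Il1b and 4.46 ± 0.03 for Socs3, and Il6 was at least 12.9-fold higher. The 2 cytokines and Socs3 were thus all highest on the LPS 4 h arrays.

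Of the transcription factors, Stat3 rose by 0.89 ± 0.04 at 4 h and 0.27 ± 0.04 at 24 h. Nfkbiz, a nuclear cofactor of NF-kappaB that Lcn2 requires in mouse macrophages, rose by 1.79 ± 0.10 at 4 h and 0.48 ± 0.10 at 24 h. Cebpd, a C/EBP factor of the acute phase, measured 7567 ± 294% in LPS at 4 h against 6179 ± 87.4% in saline at 4 h, and 1668 ± 68.4% in LPS at 24 h against 1099 ± 57.2% in saline at 24 h. Cebpb measured 1713 ± 125% in LPS at 4 h against 1224 ± 59.3% in saline at 4 h, and 264 ± 26.1% in LPS at 24 h against 270 ± 16.9% in saline at 24 h. Cebpd and Cebpb were thus far lower in saline at 24 h than in saline at 4 h. Their LPS 4 h difference was 0.29 ± 0.05 for Cebpd and 0.48 ± 0.08 for Cebpb against saline at 4 h, and 2.79 ± 0.05 and 2.67 ± 0.08 against saline at 24 h. Cebpa, another C/EBP factor, went the other way in saline, with 40.0% at 4 h and 93.6% at 24 h. In LPS it measured 129% at 4 h and 153% at 24 h, above both saline groups. With median scaling the Cebpd difference from saline at 4 h was 0.12 and did not pass (adjusted p = 0.0759). Osmr, the receptor chain for oncostatin M, rose by 0.85 ± 0.04 at 4 h and 1.02 ± 0.04 at 24 h. Its level in LPS was lower at 24 h: 697% in LPS against 388% in saline at 4 h, and 355% against 175% at 24 h. Il6st, which encodes gp130, was lower by 0.42 at 4 h (difference -0.42 ± 0.05, adjusted p = 1.60e-05) against saline at 4 h but higher by 0.34 ± 0.05 against saline at 24 h.

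**Figure D4:**
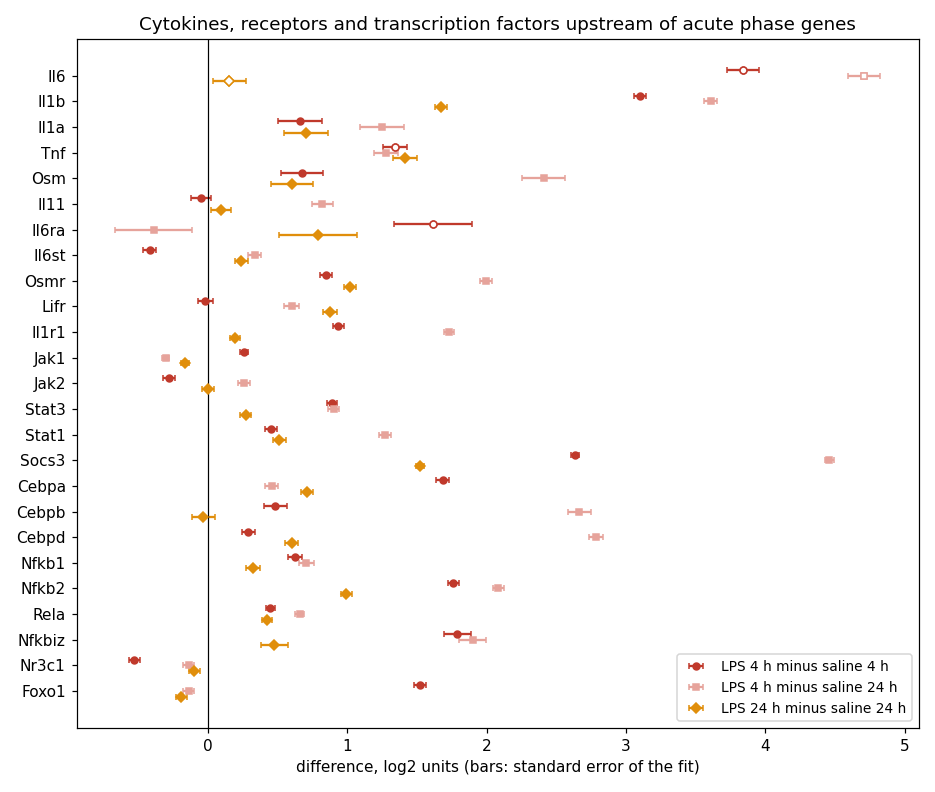
Log2 differences with standard errors for the 25 tested genes upstream of acute phase genes, with the same 3 comparisons and symbols as for the acute phase probes and open symbols for a group with no array well above background. Il6, Il1b and Socs3 have the largest differences at 4 h, and for Cebpb and Cebpd the difference at 4 h depends on which saline arrays are used.

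Receptors and partners of the acute phase proteins, 24 genes of which 22 were tested, were higher in 9, lower in 6 and did not pass in 7 at 4 h, and were higher in 11, lower in 2 and did not pass in 9 at 24 h. The shares over all tested probes were 31.6% higher with 39.4% lower at 4 h and 20.8% higher with 20.9% lower at 24 h, so that the count at 4 h is near that of all probes. The median difference of the list was 0.33 at 4 h and 0.39 at 24 h, against -0.08 and 0.0029 for all probes. In LPS at 4 h 13 were higher and 4 lower than on the saline 24 h arrays, beside 35.5% of all probes that were higher. Fpr1 and Fpr2 encode formyl peptide receptors, of which the second also binds serum amyloid A. In saline neither was above background on any array: Fpr1 rose at least 5.57-fold at 4 h and at least 4.07-fold at 24 h, and Fpr2 at least 2.38-fold and at least 1.43-fold. Both entered the test through their LPS arrays alone, so they had to differ once they were tested. Fgf2, in the same list, was not above background on any saline array and entered through its LPS 24 h arrays alone. The filter thus favoured a difference of Fgf2 at 24 h. Tlr2, also a receptor for serum amyloid A, rose by 0.42 ± 0.03 at 4 h and 1.08 ± 0.03 at 24 h. Its level in LPS was nonetheless lower at 24 h: 622% in LPS against 465% in saline at 4 h, and 265% against 125% at 24 h. Selp, the endothelial adhesion protein P-selectin that Ptx3 binds, rose at least 6.57-fold at 4 h and by 1.13 ± 0.19 at 24 h.

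The genes that take up or work with the iron and haem carriers went in different directions. Slc22a17, a receptor for Lcn2, was higher by 0.26 ± 0.05 at 4 h and 0.14 ± 0.05 at 24 h (adjusted p = 0.000653 and 0.0347), and at 4 h it was lower by 0.94 (difference -0.94 ± 0.05) against the saline 24 h arrays. Neither difference of Slc22a17 passed with median scaling (0.09 and 0.04, adjusted p = 0.153 and 0.558). Mc4r, also in the receptor list, differed by 1.53 ± 0.12 at 4 h and -0.43 ± 0.12 at 24 h (adjusted p = 1.54e-06 and 0.0170). Against the saline 24 h arrays the Mc4r difference at 4 h was 0.27 ± 0.12 and did not pass (adjusted p = 0.0666). Lrp1, the receptor for haem-hemopexin, did not pass at 4 h (0.05 ± 0.04, adjusted p = 0.365), though it did with quantile normalization (0.27, adjusted p = 0.000635), and rose by 0.34 ± 0.04 at 24 h. Cd163, the receptor for haptoglobin-haemoglobin, did not pass at either time. Slc40a1, the iron exporter ferroportin whose iron ceruloplasmin oxidises, measured 47.7 ± 2.73% in LPS at 4 h against 147 ± 8.09% in saline at 4 h and 75.8 ± 2.58% in saline at 24 h, a fall of 1.62 on the log2 scale against saline at 4 h (difference -1.62 ± 0.06, adjusted p = 6.25e-09) that was -0.67 against saline at 24 h. Hmox1, which degrades haem, differed by -0.43 ± 0.05 at 4 h and 0.50 ± 0.05 at 24 h, and by 1.12 ± 0.05 for LPS at 4 h against saline at 24 h, so its direction at 4 h turned with the saline arrays used.

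Other positive acute phase genes were also examined, 36 in the list and 25 of them tested. At 4 h 12 were higher, 6 lower and 7 did not pass, with a median of 0.20 against -0.08 for all tested probes, of which 31.6% were higher and 39.4% lower. At 24 h 20 were higher, 1 lower and 4 did not pass, with a median of 0.86 against 0.0029 for all probes, of which 20.8% were higher and 20.9% lower. In LPS at 4 h 21 were higher and 2 lower than on the saline 24 h arrays, beside 35.5% of all probes that were higher. Serpina3f, which is in these counts, was not above background on any saline array. It entered the test through its LPS arrays alone, so it had to differ once it was tested. Cfb, complement factor B, rose by 1.47 ± 0.05 at 4 h and 3.32 ± 0.05 at 24 h, and Lrg1, a secreted leucine-rich glycoprotein, by 0.68 ± 0.03 and 2.30 ± 0.03. Cfb measured 99.5% in LPS at 4 h and 96.8% in LPS at 24 h, against 35.9% and 9.7% in saline. Its larger difference at 24 h thus goes with a lower saline level. Lrg1 measured 241% and 316% in LPS, against 150% and 64.4% in saline. Cd14, a co-receptor for LPS, rose by 2.22 ± 0.04 at 4 h and 0.49 ± 0.04 at 24 h. Of the list genes on the array that did not meet the filter, Crp, Orm2, Orm3, Hamp, Fga, Serpina1b and Serpina3k were not above background on any array. Apcs and Serpina3i were above background on 2 arrays and Saa4 on 1. The fibrinogen chain Fgb was tested and is described with the hepatocyte markers below. Of 12 negative acute phase genes, whose plasma proteins fall in inflammation, 7 were tested, of which 1 was higher, 5 lower and 1 did not pass at 4 h, and 3 were higher, 1 lower and 3 did not pass at 24 h. Of the 7, 3 were higher and 2 lower in LPS at 4 h than on the saline 24 h arrays.

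Markers of other cell types moved with some of these results. Of 12 markers of neutrophils and blood monocytes, 8 were tested, of which 7 were higher and 0 lower at 4 h (7 and 1 against the saline 24 h arrays), and 6 were higher and 0 lower at 24 h. The shares over all tested probes, for these and the hepatocyte markers below, were 31.6% higher and 39.4% lower at 4 h. They were 20.8% higher and 20.9% lower at 24 h, and 35.5% higher for LPS at 4 h against the saline 24 h arrays. Ngp, Mmp8 and Retnlg entered the test through the LPS 4 h arrays alone, and Cxcr2 through the LPS 24 h arrays alone. These genes had to differ at those times once they were tested. Mmp8 at 24 h, and Cxcr2 at 4 h against saline at 24 h, were called with no array above background in either group. The arrays of Retnlg overlapped at 24 h. The summed level of the 8 markers was 622% to 647% on the LPS 4 h arrays against 55.3% to 58.9% on the saline 4 h arrays, and 166% to 175% on the LPS 24 h arrays against 80.3% to 83.5% on the saline 24 h arrays. S100a9 made up most of it, at 565 ± 12.6% in LPS at 4 h against 43.3 ± 2.15% in saline at 4 h. Elane, a granule gene, was above background on 0 arrays. Neutrophils also store Lcn2 and Hp proteins, and the part of these cells in the rises was not tested. Of 10 hepatocyte markers, Alb, Ahsg, Fga and Cyp2e1 were above background on 0 arrays, and the 5 tested summed to 497% to 605% on the LPS 4 h arrays against 729% to 864% on the saline 4 h arrays, and to 666% to 794% against 591% to 655% at 24 h. Ttr, which the choroid plexus also makes, was most of this sum, at 525 ± 54.9% in LPS at 4 h against 758 ± 69.5% in saline at 4 h. Of the 5, 1 was higher and 3 lower at 4 h (2 and 1 against the saline 24 h arrays), and 2 were higher and 0 lower at 24 h. Fgb, a fibrinogen chain and itself an acute phase gene, was the one that was higher at 4 h, by at least 2.39-fold, and it was 3.14 times as high at 24 h.

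Of 7 astrocyte markers 2 were higher and 4 lower at 4 h, and 4 were higher and 2 lower at 24 h, but against the saline 24 h arrays 6 were higher and 0 lower at 4 h, so that their direction at 4 h turned with the saline arrays used. Gfap, the intermediate filament of astrocytes, measured 3707% in LPS at 4 h against 7428% in saline at 4 h, and 3004% in LPS at 24 h against 2237% in saline at 24 h. The astrocyte list summed to 29915% to 31320% on the LPS 4 h arrays against 48157% to 50155% on the saline 4 h arrays, and to 21560% to 21824% against 19484% to 19958% at 24 h. Of 7 endothelial markers 1 was higher and 6 lower at 4 h (2 and 5 against the saline 24 h arrays), and 6 were higher and 0 lower at 24 h. Of 6 microglial markers 1 was higher and 4 lower at 4 h, where 4 were higher and 1 lower against the saline 24 h arrays, and 5 were higher and 1 lower at 24 h. The astrocyte counts at 4 h depend on the scaling: with quantile normalization S100b no longer passed as lower (-0.11, adjusted p = 0.112). Of 8 choroid plexus markers tested, a tissue beside the hippocampus, 2 were higher and 4 lower at 4 h (2 and 2 against the saline 24 h arrays), and 5 were higher and 0 lower at 24 h, and Otx2, its transcription factor, rose by 0.90 ± 0.06 at 24 h. Of 8 meningeal markers 3 were higher and 5 lower at 4 h (1 and 3 against the saline 24 h arrays), and 3 were higher and 2 lower at 24 h, and of 3 tested red blood cell genes 0 were higher and 2 lower at each time and against either saline group at 4 h. For all the lists of this paragraph, the shares over all tested probes were 31.6% higher and 39.4% lower at 4 h. They were 20.8% higher and 20.9% lower at 24 h, and 35.5% higher for LPS at 4 h against the saline 24 h arrays. The choroid plexus counts at 4 h were near the shares at that time, and the meningeal counts at 24 h were not far from theirs. The part of any of these cell types in the acute phase values was not tested. All 8 markers of hippocampal neurons, the labelled tissue, passed the filter: 4 were higher and 0 lower at 4 h, and 0 were higher and 5 lower at 24 h. When LPS at 4 h was set against saline at 24 h, 2 were higher and 5 lower, so that their direction at 4 h also turned with the saline arrays used.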

How the data were processed

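Agilent one-colour arrays of 12 hippocampal RNA samples were analysed, 3 per group. Per the file headers, the deposited per-array files hold the fluorescence intensity of 45018 spots, background-subtracted by Agilent Feature Extraction 10.7.3.1, with probe positions on mm9. The submitters' processing notes name version 9.1. The deposited series matrix holds log2 values, and normexp (offset 50) with quantile normalization of the raw intensities gave the same values to within 4.48e-10.

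Here log2 of the processed intensity was taken, outlier spots (926 in all) were dropped, the mean of a probe's repeated spots was used, and values were scaled by subtracting the array's 75th percentile. One fit of the group means covered all 12 arrays (limma 3.58.1, R 4.3.3), two-sided, with Benjamini-Hochberg adjustment over 27682 probes and calls at an adjusted p under 0.05. Adjusted p-values are from this fit, or from the same fit on values processed by the alternative that a sentence names. A fold is given as "at least" where a group had no array well above background, against the floor of that group, which is the higher of the lowest such signal per array and the probe's own. Gene lists (upstream, receptors, other positive and negative acute phase genes, cell type markers) use the brightest probe of each gene. A gene of the set is described by its brightest probe. Other genes are named if they are in the upstream or receptor list, or among the 4 of another list with the smallest adjusted p. Genes among the 5 most like Saa3, Lcn2 or Serpina3n by Pearson correlation are named too. Genes of the lists that missed the filter, or were below background in a group compared, are named to account for them. The members, lists and this rule were chosen with earlier results of these data known.

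On simulated data with 27678 probes and independent noise, the fit recovered 70 of 100 probes changed 1.5-fold and 81 of 100 changed 2-fold at 4 h, with 11 calls among unchanged probes, and 65, 78 and 7 at 24 h. All other simulated probes had the same mean in every group, with no shift of the saline 4 h arrays. In the data 19659 of 27682 probes were called at 4 h, so these rates need not hold there. Replicate numbers did not pair the samples: deviations of LPS and saline arrays with the same number correlated between -0.15 and 0.17 at 4 h and between 0.03 and 0.08 at 24 h. Sequences were taken from the array files and from RefSeq. The number of arrays limits the precision. The alternatives changed the scaling, the background correction, the values (deposited matrix), filters, probe rules, arrays in the fit, blocks, moderation, weights, threshold, leaving out each array and the choice of saline arrays.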

Additional observations from a re-analysis of the deposited data

Results flagged for a closer look

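For 9 probes the response to LPS differed between the times by the test of that difference itself, given as the log2 response at 24 h minus that at 4 h. It was larger at 24 h for Serpina3n (0.85), Saa3 (1.01) and the second Saa1 probe (0.39). It was smaller for Hp (-1.37), Lcn2 (-1.06), the brighter Saa1 probe (-0.56), Cp (-0.42) and the Ptx3 probes (-0.40 and -0.33). Over all tested probes 65.9% passed the same test, and the times were scanned on different days.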

How the results depend on the processing

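Within each time, the 10 probes called at 4 h and at 24 h stayed called and higher under every alternative that kept their own saline arrays (19 or 20 for each probe), though normexp or the deposited matrix lowered some log2 differences, as to 0.71 for Ptx3 at 24 h and to 1.93 for Lcn2 at 4 h. Leaving out each array in turn gave 10 called probes at both times, 9 for the difference between times and 9 for saline, and between 18731 and 19286, 9993 and 11279, 17528 and 18237, and 21181 and 21561 of all probes in the same order, against 19659, 11547, 18251 and 22002 with all arrays. The replicate block, which rests on numbers that do not pair the samples, left 10 called probes at each time and 19382 and 10864 of all probes.

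The choice of saline arrays mattered most. With all 6 saline arrays as controls 6 of 11 probes were called at 24 h, and 4596 of all probes at 4 h and 1967 at 24 h. With the saline 4 h arrays as controls for LPS at 24 h 22123 of all probes were called, and the Ptx3 probes turned to -0.26 and -0.12. With the saline 24 h arrays Serpina3n at 4 h was -0.0027. Normexp called 11982 of all probes at 4 h, 4104 at 24 h and 10152 for the difference between times, and averaging the probes of a gene name, which leaves 18193 to test in place of 27682, called 12811, 7694 and 11935, with 14319 for saline. The difference between times turned to -0.22 for Saa3, -0.46 for Saa2 and -0.27 for the second Saa1 probe with the deposited matrix, to -0.083 for that Saa1 probe with averaged probes and to 0.13 for Lcn2 with normexp. The saline difference turned to -0.40 for Lcn2 with normexp and to -0.15 for Cp with median scaling. The cause was not tested. Median scaling moved the median difference of all probes to -0.25 at 4 h and -0.10 at 24 h, against -0.08 and 0.0029 as reported, and the share of higher calls to 32.8% and 29.9%, against 44.5% and 49.8%. The 10 acute phase probes stayed higher at both times. Signals near background limit Saa3, Lcn2, Hpx and Orm1 in saline.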
